A study of Canis lupus familiaris with 8 samples.

Results

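The variable (TRBV) and joining (TRBJ) genes of the T cell receptor β chain were described in CD4 and CD8 T cells from the blood of 4 healthy Beagle dogs. All TRBV and TRBJ genes named in the receptor data were taken, 24 TRBV and 12 TRBJ genes of the 111 V and J genes that the series holds for both chains. The dogs were a 5-year-old female (dog 1), males of 7 years (dogs 2 and 3) and a 9-year-old male (dog 4). According to the study's methods all had been given routine vaccinations, and no other treatment was named. Effects of age or sex cannot be told apart from those of the single animal. TCRαβ+ cells had been sorted from blood mononuclear cells and frozen, and each dog gave 1 gene expression library and 1 V(D)J library made from the 5′ end of the transcripts. Both cell sets came from the same library of a dog, so the dog was the replicate and n = 4. A cell counted as CD4 single-positive with at least 1 CD4 UMI (unique molecular identifier, 1 per captured RNA molecule) and 0 CD8A UMIs, and as CD8A single-positive in the reverse case.

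Only cells with exactly 1 β-chain rearrangement entered, and each clonotype, a combination of TRBV gene, TRBJ gene and junction, was counted once per dog whatever the number of its cells. After the filter on cell quality, 23107 cells held 15874 clonotypes, 4736, 4224, 3748 and 3166 in dogs 1 to 4. Of these, 8007 belonged to CD4 single-positive cells (2674, 2056, 1729 and 1548 in dogs 1 to 4) and 2074 to CD8A single-positive cells (327, 598, 648 and 501). A further 7818 cells had no UMI of either gene and 390 cells had both, and these entered no comparison between the sets. Only 61 clonotypes had cells of both sets.

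A T cell assembles its β chain in the thymus by cutting and joining a TRBV, a TRBD and a TRBJ gene of one chromosome. Bases are trimmed from the gene ends and others are added without a template before the ends are joined. The junction runs from a conserved cysteine at the end of the TRBV gene to a conserved phenylalanine in the TRBJ gene and contains the loop of the receptor that lies over the peptide, while the loops that mostly touch the MHC molecule are encoded in the TRBV gene. The CD4 coreceptor binds MHC class II and the CD8 coreceptor binds MHC class I.

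The germline ends that enter the junction were read from the germline alignments deposited with the rearrangements, as the stretch common to the most frequent alignment of a gene with each of its partner genes. They are shown for the genes on which the results turn, 5′ to 3′, with the conserved cysteine codon in capitals for TRBV genes and the conserved phenylalanine codon in capitals for TRBJ genes. Their place in the genome is not given here.
TRBV16: TGTgccagcagtgaatc
TRBV3-2: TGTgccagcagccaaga
TRBV3-1: TGTgccagcagcctaga
TRBV1: TGCacctgcagtaaaga
TRBV25: TGTgccagcagtgaata
TRBV24: TGTgccagcagcgattca
TRBV20: TGTggtgctagtca
TRBJ2-1: ctaatatggggagcagcacTTT
TRBJ1-2: ttatgattttaacTTT
TRBJ1-3: cttttgaaacaccttgcacTTT
Most TRBV genes ended in 16 or 17 bases of this stretch, TRBV20 and TRBV29 in 14 and TRBV24 in 18. TRBV26 and TRBV28 carried a stop codon in frame as the fifth codon, shown here in capitals.
TRBV26: tgtgccagcagtTAGc
TRBV28: tgcgccagtagtTAGc
None of the 821 clonotypes of TRBV26 and 849 of TRBV28 kept this codon, in data that hold productive rearrangements only. By contrast, 493 of 1211 clonotypes of TRBV3-2 kept the whole germline end.

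The libraries held 26904346 to 35661623 UMIs in 7428 to 8873 barcodes, and a kept cell had a median of 7 to 9 UMIs of its β chain. The mean was 9.94 ± 0.971 in CD4 and 9.84 ± 0.830 in CD8A single-positive cells (SD, n = 4), with CD8A higher in 2 of 4 dogs (exact permutation test, two-sided p = 1, smallest possible p 0.125). The libraries of dogs 1 and 4 shared 54 clonotypes with identical nucleotide junctions, carried by 69 cells of dog 1 and 1060 cells of dog 4, whereas the other pairs of dogs shared 0 or 1. Of 53 α-chain junctions in these cells of dog 1, 51 also occurred in those cells of dog 4, and none of the cells shared a barcode. These clonotypes made up 5.81% of the CD8A clonotypes of dog 1, 4.19% of those of dog 4, and 0.636% and 1.55% of their CD4 clonotypes. Each count below is therefore also given without the clonotypes found in 2 libraries where it changed by more than 1.5 times. CD4 helper genes summed to 749 to 809 CPM (UMIs scaled to a common library total) in the CD4 set and 36.8 to 78.6 in the CD8A set. The list of CD8A and cytotoxic genes summed to 63.6 to 242 and 6234 to 8954. Each list holds a gene that chose the cells and was 0 in the other set by rule. These were CD4, at 524 to 551 CPM in the CD4 set, and CD8A, at 1380 to 1657 CPM in the CD8A set. FCER1G, KLRB1, NCR3, ZEB2 and CXCR6 together reached 785 to 1175 CPM in the CD8A set against 7.70 to 29.1 in the CD4 set. The study also found NCR3 and ZEB2 in CD8A-dominant clusters other than its FCER1G+ innate-like ones, so this sum is not specific to those. FCER1G alone was at 353 ± 101 CPM in the CD8A set and 1.16 ± 0.677 in the CD4 set. Of the B cell markers, CD79A was at 9780 ± 564 CPM in the CD4 set and 9833 ± 677 in the CD8A set, while CD79B was at 0.429 ± 0.188 and 0.325 ± 0.420 and PAX5 was listed at 0.

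Usage of TRBV genes differed widely between CD4 and CD8A single-positive cells. Of 18 TRBV genes with at least 20 clonotypes, 13 passed an adjusted p of 0.05, which is 72.2% of those tested. Of these, 7 made up a larger share of CD8A clonotypes and 6 a smaller one. The ranges of the 4 dogs did not overlap between the sets for 12 of the 18 genes (66.7%). Shares add up to a fixed total, so a rise of some genes lowers the share of others. With TMM factors, which rescale the totals, the same 13 genes passed, 7 upwards and 6 downwards. These factors take most genes as unchanged. With 13 of 18 passing, this setting cannot tell a fall from one forced by the fixed total.

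TRBV24 showed the largest ratio of the genes that passed. It made up 1.12%, 0.875%, 0.868% and 1.23% of CD4 clonotypes in dogs 1 to 4 and 3.67%, 3.34%, 3.09% and 2.79% of CD8A clonotypes. Every dog was higher in CD8A, with a log2 fold change of 1.66 ± 0.23 (SE) and an adjusted p of 0.00195 (edgeR quasi-likelihood test). For all edgeR tests the SE is the absolute log2 fold change divided by the square root of the F statistic. It is derived from the test and need not match the p-value. TRBV25 took 2.84%, 3.06%, 3.30% and 3.81% of CD4 clonotypes against 10.1%, 6.86%, 6.79% and 6.59% of CD8A clonotypes. Dog 1 stood above the other dogs in CD8A, and all 4 dogs rose (log2 1.201 ± 0.21, adjusted p = 0.00330). For TRBV1, CD4 values were 6.21%, 5.59%, 5.55% and 6.85% and CD8A values were 15.0%, 11.5%, 10.0% and 9.58%. This made TRBV1 the third most used TRBV gene of the CD8A set and the eighth of the CD4 set, with log2 0.92 ± 0.18 and an adjusted p of 0.00330.

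Among rarer genes, TRBV10 rose from 1.17 ± 0.307% of CD4 to 2.80 ± 1.17% of CD8A clonotypes (log2 1.23 ± 0.28, adjusted p = 0.00538). Its values in dogs 1 to 4 were 0.972%, 1.41%, 1.45% and 0.840% in CD4 and 3.06%, 4.35%, 2.01% and 1.80% in CD8A. TRBV4-4 was at 0.898%, 0.632%, 0.983% and 0.323% in CD4 and at 1.53%, 1.003%, 2.31% and 1.996% in CD8A (adjusted p = 0.0129). For both genes the lowest CD8A value lay above the highest CD4 value. TRBV15 varied among the dogs in both sets. It had 4.45%, 2.58%, 3.07% and 6.20% of CD4 clonotypes and 9.79%, 5.18%, 6.17% and 8.38% of CD8A clonotypes. The ranges overlapped, yet each dog was higher in CD8A (log2 0.88 ± 0.19, adjusted p = 0.00432).

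The call of TRBV28 was lost when 1 group of cells was left out, and also in other settings. Over 21 alternatives TRBV28 remained past the threshold in 14, lost it in 6 and reversed in 1. It made up 6.32%, 5.50%, 3.99% and 5.23% of CD4 and 8.56%, 11.04%, 8.80% and 5.59% of CD8A clonotypes, with a log2 fold change of 0.70 ± 0.22 and an adjusted p of 0.0163. Cells whose α chain joined TRAV9-11 to TRAJ28, the pairing of the canine MAIT-like cells, held 270 CD8A and 9 CD4 clonotypes. TRBV28 was used by 93 of these 270, on average 35.9 ± 6.75% per dog. Without these cells TRBV28 was at 5.26 ± 0.965% in CD4 and 5.14 ± 0.876% in CD8A, and the log2 fold change was -0.01 ± 0.20 (adjusted p = 0.946). Without cells with a UMI of FCER1G, a gene of innate-like T cells, it was at 5.27 ± 0.966% and 5.70 ± 1.15% (adjusted p = 0.570). TRBV24 took 25 and TRBV25 took 33 of the 270 clonotypes, and both remained past the threshold without these cells, at log2 1.26 ± 0.26 and 1.07 ± 0.21. TRBV1 was found in 3 of the 270, and its log2 fold change without them was 1.08 ± 0.19.

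**Figure D1:**
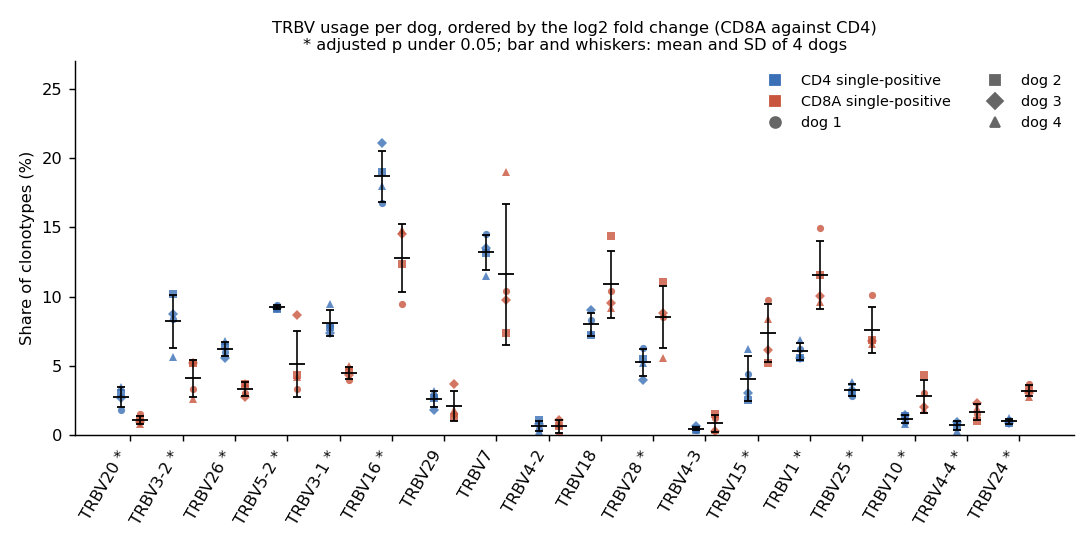
Share of clonotypes (%) for the 18 TRBV genes tested, ordered by the log2 fold change between CD8A (red) and CD4 (blue) single-positive cells, with 1 point per dog and the mean and SD of 4 dogs in black. TRBV24, at the right, lay between 2.79% and 3.67% in CD8A against 0.868% to 1.23% in CD4, whereas TRBV7 and TRBV29 overlapped.

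The most used gene, TRBV16, was lower in CD8A cells. It accounted for 16.7%, 18.97%, 21.1% and 18.0% of CD4 and 9.48%, 12.4%, 14.51% and 14.8% of CD8A clonotypes in dogs 1 to 4. The ranges did not overlap, with log2 -0.55 ± 0.16 and an adjusted p of 0.0129. TRBV5-2 was nearly constant in CD4, at 9.42%, 9.10%, 9.20% and 9.17%, and at 3.36%, 4.35%, 8.64% and 4.19% in CD8A. Dog 3 thus stood close to its own CD4 value, and the fold change was -0.85 ± 0.25 on the log2 scale (adjusted p = 0.0132). TRBV3-1 and TRBV3-2 are close relatives whose reads may not always be told apart, and they fell alike. TRBV3-1 was at 7.85%, 7.78%, 7.35% and 9.50% in CD4 and at 3.98%, 4.68%, 4.32% and 4.99% in CD8A (log2 -0.84 ± 0.17, adjusted p = 0.00330). TRBV3-2 was at 8.38%, 10.2%, 8.73% and 5.62% in CD4 and at 3.36%, 5.18%, 5.25% and 2.59% in CD8A (log2 -0.99 ± 0.18, adjusted p = 0.00330). Dog 4 had the lowest share of TRBV3-2 in both sets.

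TRBV26 had 6.02%, 6.42%, 5.61% and 6.78% of CD4 and 3.06%, 3.68%, 2.78% and 3.79% of CD8A clonotypes, with no overlap (log2 -0.90 ± 0.18, adjusted p = 0.00330). TRBV20 had the largest fall, from 2.75 ± 0.714% to 1.11 ± 0.322% (log2 -1.37 ± 0.32, adjusted p = 0.00538). In dogs 1 to 4 it made up 1.80%, 3.02%, 2.72% and 3.49% of CD4 clonotypes and 1.53%, 1.17%, 0.926% and 0.798% of CD8A clonotypes. Its 22 CD8A clonotypes make it the least certain of the 13 in single dogs.

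The other 5 tested genes did not pass. TRBV18 was higher in CD8A in every dog, at 10.4%, 14.4%, 9.57% and 9.18% against 8.34%, 7.25%, 9.02% and 7.36% in CD4, with an adjusted p of 0.0681. TRBV7, the second most used gene, was at 14.55%, 13.2%, 13.5% and 11.5% in CD4 and at 10.4%, 7.36%, 9.72% and 18.96% in CD8A. Dog 4 went against the other dogs, and the adjusted p was 0.417. TRBV29, TRBV4-2 and TRBV4-3 had adjusted p-values of 0.515, 0.968 and 0.205. The germline ends of TRBV4-2 and TRBV4-3 are identical, and their division is uncertain. Of the 6 genes with too few clonotypes, TRBV5-4 had 12 of 8007 CD4 clonotypes and 0 of 2074 CD8A clonotypes, where a count of 0 allows a share of up to 0.145%. TRBV12-2, TRBV19, TRBV22, TRBV30 and TRBV4-1 had 1 to 10 clonotypes in both sets together.

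The TRBV calls were compared with the gene expression counts, where TRBV18, TRBV19, TRBV25-1 and TRBV30 are annotated as genes. Both kinds of library were made from the same cells. A UMI of TRBV18 was found in 2190 of 2190 cells called TRBV18, of TRBV25-1 in 1190 of 1190 cells called TRBV25 and of TRBV30 in 27 of 27 cells called TRBV30. The 1 cell called TRBV19 had 0 UMIs of the annotated TRBV19. In cells called TRBV16 the shares with a UMI were 2.14% for TRBV18 and 1.19% for TRBV25-1. The annotated TRBV28 had a UMI in all 1387 cells called TRBV28 but also in 48.1% of cells called TRBV16 and 61.3% of cells called TRBV20, so this gene count does not tell TRBV28 cells from others.

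TRBJ genes differed between the sets in both directions. Of 12 TRBJ genes, 7 passed (58.3%), 3 higher and 4 lower in CD8A, and the ranges did not overlap for 3 (25%). TRBJ2-1 showed the clearest change. It joined 13.1%, 12.2%, 14.52% and 13.4% of CD4 clonotypes and 14.7%, 19.9%, 19.3% and 18.96% of CD8A clonotypes in dogs 1 to 4. The lowest CD8A value, that of dog 1, lay just above the highest CD4 value, and the log2 fold change was 0.47 ± 0.08 (adjusted p = 1.21e-05). TRBJ1-2 rose from 11.6%, 10.3%, 10.4% and 9.69% to 13.1%, 13.5%, 12.04% and 11.98% (log2 0.28 ± 0.09, adjusted p = 0.0173). Both genes were higher in CD8A in every dog and did not overlap. Without the cells with TRAV9-11 and TRAJ28, TRBJ1-2 did not pass. It was then at 10.5 ± 0.805% in CD4 and 11.4 ± 0.504% in CD8A (log2 0.13 ± 0.08, adjusted p = 0.299). Without cells with an FCER1G UMI its adjusted p was 0.272. TRBJ2-1 passed in both settings (adjusted p = 0.000749 and 0.0126). TRBJ2-6, the most used TRBJ gene of the CD4 set, rose from 14.8%, 16.4%, 15.5% and 9.69% to 18.96%, 18.6%, 18.1% and 11.8% (log2 0.24 ± 0.08, adjusted p = 0.0173). Dog 4 was the lowest in both sets. Without FCER1G cells TRBJ2-6 did not pass (edgeR, adjusted p = 0.0515), and it lost the threshold in 9 of 21 alternatives.

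Of the genes that fell, TRBJ1-3 had 8.08%, 6.86%, 8.73% and 8.46% of CD4 clonotypes and 5.81%, 5.02%, 6.79% and 5.79% of CD8A clonotypes. These ranges did not overlap (log2 -0.45 ± 0.12, adjusted p = 0.00762). TRBJ2-5 was at 12.04%, 12.8%, 10.6% and 13.0% in CD4 and 11.3%, 9.87%, 8.18% and 10.8% in CD8A (adjusted p = 0.0173). It was lower in each dog with some overlap. TRBJ1-5, a rare gene, had 3.48%, 2.29%, 1.56% and 2.13% of CD4 and 1.22%, 1.17%, 0.772% and 2.40% of CD8A clonotypes (log2 -0.72 ± 0.25, adjusted p = 0.0173). TRBJ2-2 was at 4.30%, 4.28%, 3.35% and 5.30% in CD4 and at 2.45%, 2.68%, 3.40% and 3.59% in CD8A (adjusted p = 0.0243). Both of these fell in 3 of 4 dogs, with dog 4 the exception for TRBJ1-5 and dog 3 for TRBJ2-2. Neither passed without the cells with TRAV9-11 and TRAJ28 (edgeR, adjusted p = 0.0577 for each). Without FCER1G cells TRBJ2-5, TRBJ1-5 and TRBJ2-2 did not pass (adjusted p = 0.0830, 0.102 and 0.110). These 3 genes lost the threshold in 8, 9 and 11 of 21 alternatives.

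TRBJ1-1, TRBJ1-4, TRBJ1-6, TRBJ2-3 and TRBJ2-4 did not pass. Their means in CD4 and CD8A were 9.63 ± 2.02% and 8.36 ± 2.22% for TRBJ1-1, and 11.7 ± 1.88% and 10.4 ± 0.928% for TRBJ2-3. TRBJ1-4 was at 5.26 ± 0.631% and 4.54 ± 0.327%, and TRBJ1-6 at 8.32 ± 0.330% and 8.47 ± 0.735%. Adjusted p-values of these 4 genes ran from 0.0811 for TRBJ2-3 to 0.986 for TRBJ1-6. Fewer TRBJ calls stood when the setting was changed than TRBV calls, with 2 genes past the threshold without the dog as a block and 3 with DESeq2. TRBJ2-1 had the smallest adjusted p, and its log2 fold change remained above 0 in all settings run. It lost the threshold in 1 of 21 alternatives, that in which each cell was counted (adjusted p = 0.205). There 0 TRBJ genes were higher and 2 lower in CD8A.

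**Figure D2:**
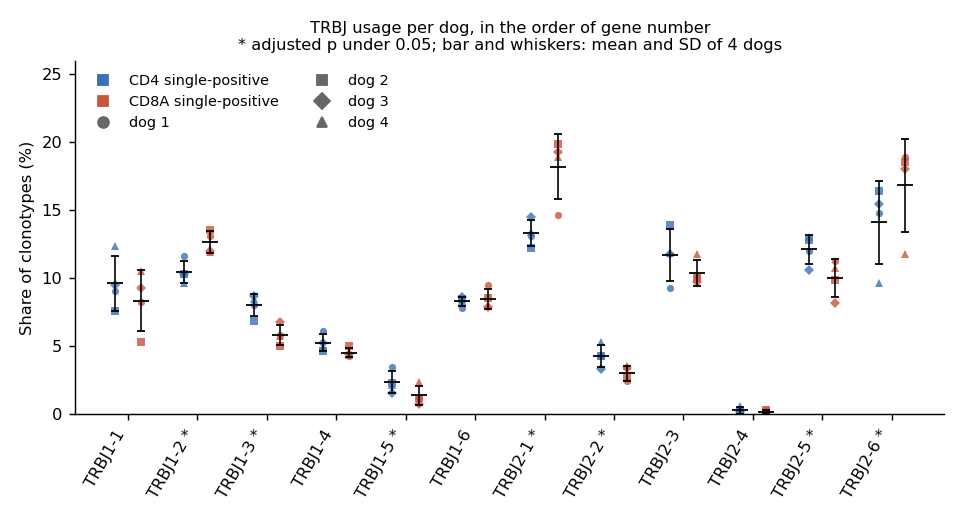
Share of clonotypes (%) for the 12 TRBJ genes in CD4 (blue) and CD8A (red) single-positive cells, with 1 point per dog and the mean and SD of 4 dogs in black. TRBJ2-1 lay between 14.7% and 19.9% in CD8A and between 12.2% and 14.52% in CD4, and dog 4 (triangles) stood below the other dogs at TRBJ2-6 in both sets.

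The TRBJ genes lie in 2 clusters, each behind its own TRBD gene. Genes of the TRBJ2 cluster joined 53.8%, 59.8%, 56.0% and 54.0% of CD4 clonotypes in dogs 1 to 4 and 57.8%, 61.4%, 58.8% and 56.9% of CD8A clonotypes. The share was higher in CD8A by 2.81 ± 1.01 percentage points (SD of the within-dog difference, higher in 4 of 4 dogs, exact permutation test, two-sided p = 0.125, the smallest that 4 dogs can give). With 2 UMIs required for CD4 or CD8A, the difference was 1.45 ± 1.38 and held in 3 of 4 dogs. In cells with a CCR7 or LEF1 UMI it was 3.09 ± 3.62, also in 3 of 4 dogs. When each cell was counted it was 3.98 ± 12.8, from -12.9 in dog 3 to 16.1 in dog 4. A TRBD gene was named for few clonotypes, none for 84.5 ± 1.29% of TRBJ1 and 81.1 ± 0.861% of TRBJ2 clonotypes. TRBD2, which lies behind the TRBJ1 cluster, was named in 4.85 ± 0.600% of TRBJ2 and 0.191 ± 0.0647% of TRBJ1 clonotypes. TRBD1 was named in 14.1 ± 0.591% and 15.3 ± 1.29%.

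The least used TRBJ gene, TRBJ2-4, had 39 clonotypes in all, and its calls rested on few bases. TRBJ2-4 and TRBJ2-5 differ at 4 bases of their ends, shown in capitals.
TRBJ2-4: agccTGGaCacccagtacttc
TRBJ2-5: agccAAAaTacccagtacttc
In each clonotype called TRBJ2-4 the match to this gene covered exactly the last 12 bases, which both genes share. It thus ended at the first of the 4 differing bases met from the 3′ end. Whether these bases had been trimmed or were those of TRBJ2-5 was not tested. Beyond the junction the genes differ again near the end of the coding stretch, and there 33 of the 39 carried the end of TRBJ2-5 and 6 that of TRBJ2-4. Of the clonotypes called TRBJ2-5, 1810 of 1814 carried their own end.

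TRBJ2-6 occurred with 2 alternative bases in these dogs. The reference has A at position 11, counted from the 5′ end of the gene, and many clonotypes carried the substitution A11G. The position is shown in capitals.
TRBJ2-6 (reference): cgctacgagcAgtatttc
TRBJ2-6 (other base): cgctacgagcGgtatttc
Dogs 1, 2 and 3 carried A11G in 208 of 751, 192 of 707 and 182 of 595 TRBJ2-6 clonotypes that kept the bases up to this position (27.7%, 27.2% and 30.6%). Dog 4 carried it in 315 of 315 clonotypes, and was the dog with the lowest usage of TRBJ2-6, 10.1% of all clonotypes against 15.9%, 16.8% and 15.9%. In dogs 1 to 3 the share of A11G was 30.1 ± 1.93% in CD4 and 27.1 ± 7.90% in CD8A, and it was higher in CD8A in 1 of 3 dogs (exact permutation test, two-sided p = 0.75, smallest possible p 0.25).

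The 2 bases of TRBJ2-6 went with different TRBV genes within a dog. TRBV29 also had alternative bases, with the substitution G7A counted from the cysteine codon.
TRBV29 (reference): tgcagcGctagaga
TRBV29 (other base): tgcagcActagaga
Among clonotypes of dog 1 that joined TRBV29 to TRBJ2-6, all 13 with the A form of TRBV29 had the reference base of TRBJ2-6 and all 6 with the G form had A11G. Dog 2 showed the same division, with 18 and 6 clonotypes and no exception, while in dog 3 the A form occurred 11 times with the reference base and 5 times with A11G, and the G form 1 time with each. TRBV3-2 of dog 1 joined TRBJ2-6 in 74 clonotypes, of which 0 had A11G, against 26 of 86 in dog 2 and 15 of 47 in dog 3. Of TRBV4-4, 0 of 9 and 0 of 11 clonotypes had A11G in dogs 1 and 2 and 3 of 13 in dog 3. For TRBV16, by comparison, the shares were 37.1%, 34.4% and 34.9%. These divisions are counts and carry no test.

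Combinations of TRBV and TRBJ genes were compared with the product of the gene shares of the same dog, over all clonotypes. Of 153 pairs with a mean of at least 5 expected clonotypes per dog, 27 differed from it (limma, adjusted p under 0.05, 17.6%), 11 above (7.19%) and 16 below (10.5%). At an unadjusted p of 0.05, 56 of the 153 did. With 2 added to the observed and expected counts, 36 passed the adjusted threshold. A pair that did not pass is not thereby shown to be near the product. The outstanding pair was TRBV20 with TRBJ2-6. It was not seen in a single one of 365 TRBV20 clonotypes, nor among all 25320 β-chain rearrangements, where 12.9, 19.5, 13.2 and 8.56 clonotypes were expected in dogs 1 to 4. A count of 0 allows up to 0.822% of TRBV20 clonotypes, so the pair was at least 18.1-fold below its expected number of 54.2 (adjusted p = 3.29e-05).

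TRBV20 was rarer than expected with TRBJ2-1, TRBJ2-3 and TRBJ2-5 as well. It joined TRBJ2-1 in 22 clonotypes where 53.6 were expected (log2 -1.43 ± 0.30, adjusted p = 0.0221), TRBJ2-5 in 22 of 42.0 (log2 -0.92 ± 0.17) and TRBJ2-3 in 24 of 42.8 (log2 -0.81 ± 0.11). Instead, TRBJ1-1 was joined in 83 clonotypes against 33.6 expected (log2 1.23 ± 0.19), TRBJ1-2 in 76 against 40.3 (log2 0.81 ± 0.19) and TRBJ1-6 in 66 against 31.0 (log2 0.91 ± 0.24). Of the TRBV20 pairs, 7 of the 8 tested passed, and every dog had the same direction in each of them. The TRBJ2 cluster held 16.05%, 21.6%, 13.3% and 28.2% of TRBV20 clonotypes in dogs 1 to 4, against 54.9%, 59.1%, 57.3% and 54.8% of all clonotypes. TRBV20 was lowest, and the next lowest TRBV gene with at least 100 clonotypes was TRBV24 with 35.6 ± 2.65%.

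TRBV24 showed a milder departure of the same kind. It joined TRBJ1-2 in 58 clonotypes against 23.7 expected (log2 1.23 ± 0.16, adjusted p = 0.00882), TRBJ2-1 in 17 against 31.3 and TRBJ2-6 in 15 against 31.9 (log2 -1.21 ± 0.23, adjusted p = 0.02004). TRBJ2-6 was also rarer than expected with TRBV1, in 86 clonotypes where 165 were expected (29, 28, 20 and 9 in dogs 1 to 4, log2 -0.98 ± 0.12, adjusted p = 0.00882), and with TRBV10, in 21 where 35.7 were expected. TRBV10 was in turn more frequent than expected with TRBJ1-1, in 35 clonotypes (9, 12, 7 and 7 in dogs 1 to 4) where 20.96 were expected (log2 0.67 ± 0.13, adjusted p = 0.02004). TRBJ1-3 was rare with TRBV15, at 20 clonotypes against 58.6 (6, 2, 5 and 7 in dogs 1 to 4, log2 -1.53 ± 0.16, adjusted p = 0.00560). No pair of TRBV7, TRBV18, TRBV25, TRBV26 or TRBV28 passed. The number of calls was lower without dog 1 (2 pairs) and without dog 2 (9 pairs), and 4 pairs passed when each cell was counted. TRBV20 with TRBJ2-6 had no clonotype in any dog, whichever dog was left out.

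**Figure D3:**
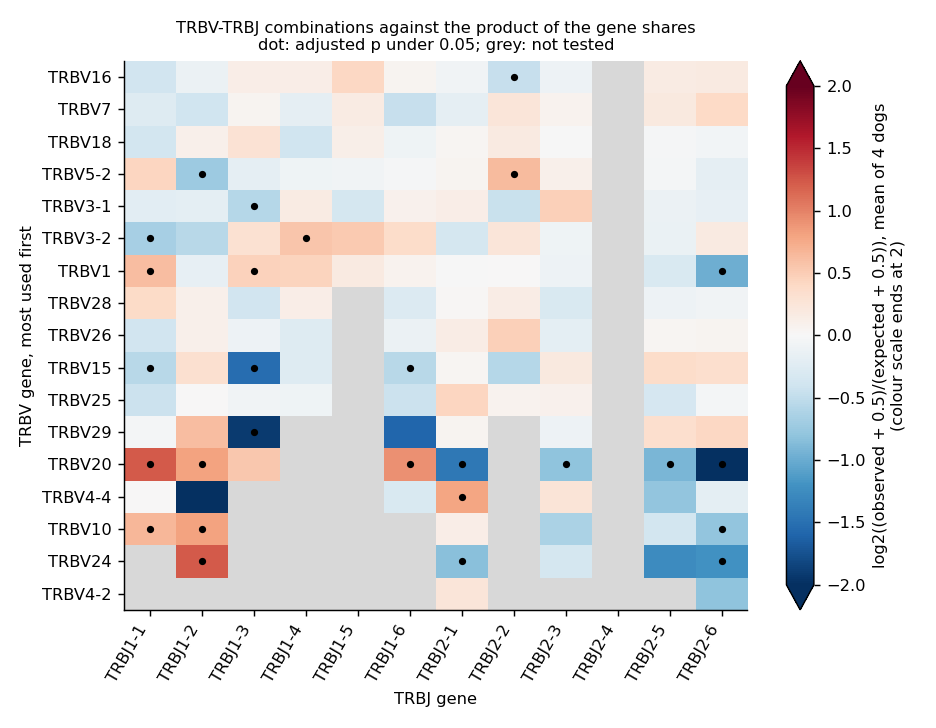
Mean over 4 dogs of log2((observed + 0.5)/(expected + 0.5)) for pairs of TRBV (vertical) and TRBJ (horizontal) genes over all clonotypes. Dots mark an adjusted p under 0.05, and grey pairs had a mean of fewer than 5 expected clonotypes per dog. TRBV20 is red with TRBJ1-1, TRBJ1-2 and TRBJ1-6 and blue with TRBJ2-1, TRBJ2-3, TRBJ2-5 and TRBJ2-6, the last with 0 clonotypes of 54.2 expected.

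The departures from the product were compared between CD4 and CD8A single-positive cells. With the usage of both genes in each set taken into account, 0 of 89 pairs differed between the sets at an adjusted p of 0.05 (limma, 0%), and 5 did at an unadjusted p of 0.05. The count at the adjusted threshold was 0 in each setting run. TRBV20 clonotypes of CD8A cells were too few for this test, 5, 7, 6 and 4 in dogs 1 to 4, of which 1, 2, 0 and 3 joined the TRBJ2 cluster. In CD4 cells, 4 of 48, 16 of 62, 10 of 47 and 10 of 54 did.

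Plain counts of pairs, without regard to gene usage, differed for 14 of 127 pairs between the sets (11%), 7 higher and 7 lower in CD8A (5.51% each). The ranges of the dogs did not overlap for 26 pairs (20.5%). Pairs of TRBV genes that were higher in CD8A led this list. TRBV24 with TRBJ1-2 had 18 CD4 and 23 CD8A clonotypes (log2 2.16 ± 0.58, adjusted p = 0.0272), although dog 1 had none in CD8A. TRBV1 with TRBJ2-6 had 21 and 26 (log2 1.98 ± 0.57, adjusted p = 0.0272), and dog 2 alone was at 3.18% of its CD8A clonotypes against 0.399% to 0.612% in the other dogs. TRBV25 with TRBJ2-1 had 49 and 35 (log2 1.57 ± 0.45), TRBV28 with TRBJ1-2 had 47 and 32, TRBV15 with TRBJ2-1 had 38 and 29, TRBV1 with TRBJ2-1 had 68 and 41, and TRBV25 with TRBJ2-6 had 30 and 23. Among the pairs that fell, TRBV3-1 with TRBJ1-1 had 60 CD4 and 3 CD8A clonotypes (log2 -2.43 ± 0.77, adjusted p = 0.0392) and TRBV3-2 with TRBJ1-3 had 74 and 4 (log2 -2.14 ± 0.70). TRBV28 with TRBJ2-2 had 27 and 0, which is at least 2.33-fold lower in CD8A with 3 counts over the 2074 clonotypes as the limit. These calls were not stable. Without dogs 1, 2, 3 or 4 in turn 0, 1, 1 and 9 pairs passed, DESeq2 called 0, and 2 passed without the clonotypes found in 2 libraries.

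Junctions were longer in CD8A than in CD4 single-positive cells. Over all 15874 clonotypes the length ran from 7 to 22 amino acids with a median of 15. Clonotypes of CD4 cells had mean lengths of 14.37, 14.31, 14.44 and 14.38 amino acids in dogs 1 to 4, and those of CD8A cells 14.76, 14.61, 14.86 and 14.97. The sets did not overlap, and the difference was 0.423 ± 0.118 amino acids (SD, higher in 4 of 4 dogs, exact permutation test, two-sided p = 0.125, the smallest possible). When TRBV-TRBJ pairs were weighted equally in both sets, the difference was 0.512 ± 0.0703, so it was not smaller at equal gene usage. Clonotypes of the cells with TRAV9-11 and TRAJ28 averaged 13.8 ± 0.159 amino acids, and without them the difference was 0.550 ± 0.0668.

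The distribution was wider in CD8A cells and shifted at its long side. Of 11 length classes tested, 9 passed (81.8%), 6 higher and 3 lower in CD8A, and the ranges did not overlap for 8 of them (72.7% of the 11). Junctions of 13, 14 and 15 amino acids made up 18.8 ± 1.27%, 25.7 ± 1.37% and 25.6 ± 1.51% of CD4 clonotypes but 13.2 ± 0.920%, 20.1 ± 1.92% and 22.8 ± 0.609% of CD8A clonotypes. From 16 residues on, CD8A was higher in every dog and class up to 20. Junctions of 16 rose from 11.8 ± 1.21% to 16.1 ± 1.17%, those of 17 from 5.19 ± 0.825% to 9.27 ± 1.99% and those of 18 from 2.15 ± 0.215% to 4.71 ± 0.706% (log2 1.12 ± 0.14, adjusted p = 5.76e-05). At 20 residues the shares were 0.245 ± 0.0896% and 0.934 ± 0.241% (log2 1.85 ± 0.41, adjusted p = 0.00134). Junctions of 16 or more came to 20.2 ± 1.497% and 33.2 ± 3.81%. The short side differed little, with 9.69 ± 1.14% and 10.6 ± 1.87% of clonotypes at 12 or fewer residues. Only the class of 10 residues passed there, at 0.313 ± 0.0232% against 0.648 ± 0.301% (adjusted p = 0.0426). The SD of the lengths within a dog was 1.57 ± 0.0295 in CD4 and 1.88 ± 0.0159 in CD8A amino acids.

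**Figure D4:**
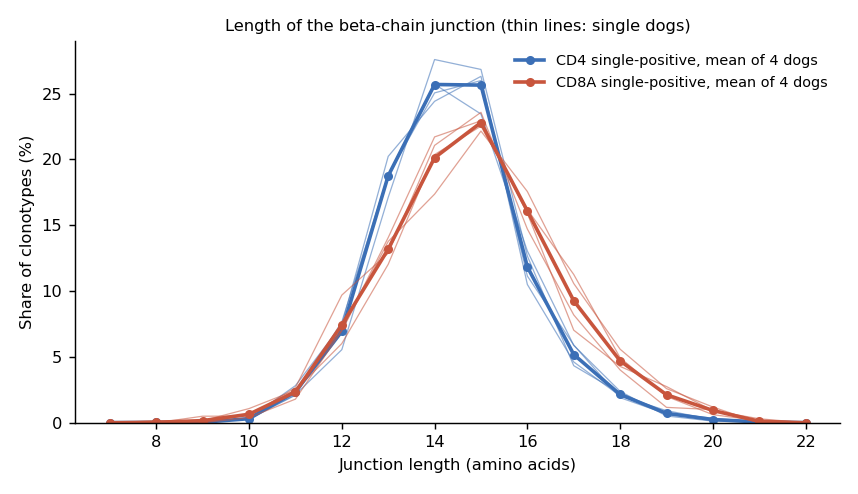
Share of clonotypes (%) by junction length (amino acids) in CD4 (blue) and CD8A (red) single-positive cells, with thin lines for single dogs and thick lines for the mean of 4 dogs. The curves meet near 12 residues and cross between 15 and 16, beyond which CD8A is higher.

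The greater length was not shared by all genes. Of 21 TRBV and TRBJ genes with at least 10 clonotypes in each dog and set, 12 had longer junctions in CD8A (limma, adjusted p under 0.05, 57.1%) and 0 shorter ones. The fit gave the same SE, 0.179, for all 21 genes. Its SE and p-values therefore do not show the spread of a single gene over its 4 dogs. TRBV3-2 led with 14.6, 14.6, 14.6 and 14.9 amino acids in CD4 and 16.2, 15.2, 16.1 and 16.3 in CD8A, a difference of 1.30 ± 0.18 (SE, adjusted p = 1.66e-08). TRBV16 had 14.45, 14.33, 14.45 and 14.53 against 15.8, 15.1, 15.7 and 15.2 (difference 1.02 ± 0.18, adjusted p = 3.44e-06). The sets did not overlap for either gene. TRBV3-1 differed by 0.809 (adjusted p = 0.000197), TRBV18 by 0.743 (adjusted p = 0.000538), TRBV1 by 0.461 (adjusted p = 0.0239) and TRBV5-2 by 0.428 (adjusted p = 0.0351), each in 4 of 4 dogs. In contrast, TRBV24, TRBV25, TRBV26 and TRBV28 differed by -0.0837, 0.0804, -0.0314 and -0.0829 amino acids (adjusted p from 0.688 to 0.861), with dogs on both sides of 0. TRBV24, TRBV25 and TRBV28 held 25, 33 and 93 of the 270 CD8A clonotypes with TRAV9-11 and TRAJ28, which averaged 13.8 amino acids. Without these cells, 13 of 18 genes tested were longer in CD8A, 11 of them among the 12. Single genes were thus tested again without these cells, but the change of a gene's difference between the fits was not tested. TRBV7 and TRBV15 were longer by 0.315 and 0.374 in 4 of 4 dogs without passing.

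Of the TRBJ genes, TRBJ1-4 (0.674), TRBJ2-1 (0.628), TRBJ2-3 (0.622), TRBJ1-6 (0.617), TRBJ1-1 (0.522) and TRBJ2-5 (0.478 amino acids) had longer junctions in CD8A in 4 of 4 dogs, with adjusted p-values from 0.00156 to 0.0204. TRBJ1-2, TRBJ1-3 and TRBJ2-6 differed by 0.294, 0.181 and 0.158 and did not pass. For TRBJ2-6 the CD4 means were 14.3, 14.4, 14.4 and 14.3 and the CD8A means 14.26, 14.46, 14.56 and 14.76, with dog 1 lower in CD8A. TRBJ2-1 and TRBJ2-6 thus both took larger shares in CD8A, but only the former passed in length. Whether 2 genes differed from each other in this respect was not tested. TRBV10, TRBV20, TRBV29, the TRBV4 genes, TRBJ1-5, TRBJ2-2 and TRBJ2-4 had too few clonotypes.

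**Figure D5:**
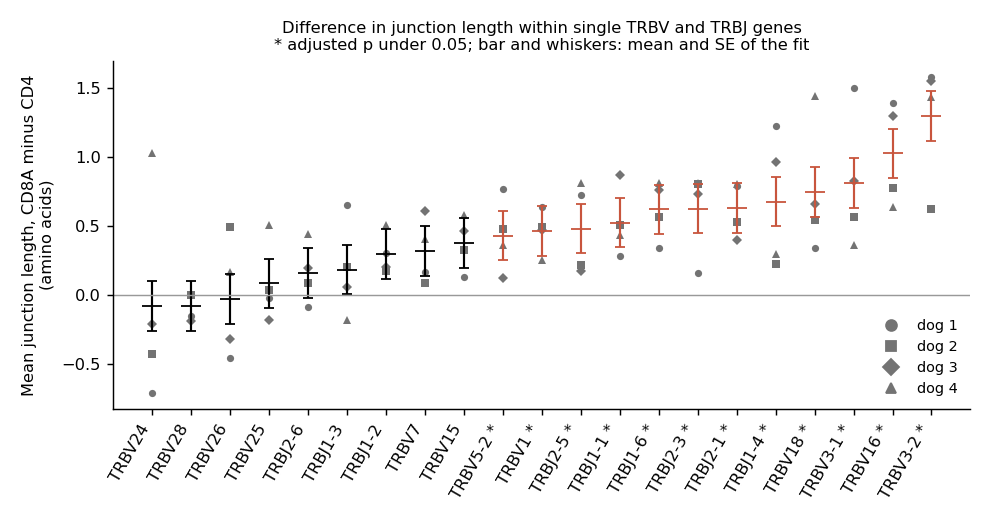
Difference in mean junction length (CD8A minus CD4, amino acids) within single TRBV and TRBJ genes, with 1 grey point per dog. Bars give the mean and the SE of the fit, red where the adjusted p was under 0.05. The SE is the same for all genes. TRBV3-2 and TRBV16, at the right, differed by 1.30 and 1.02, and TRBV24, TRBV28, TRBV26 and TRBV25, at the left, lay within 0.0837 of 0.

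Each junction was divided into the bases that matched its TRBV end, the bases that matched its TRBJ end and the insert between them, which holds added bases and any TRBD bases. CD4 inserts averaged 13.7, 13.6, 13.9 and 14.0 bases in dogs 1 to 4 and CD8A inserts 14.7, 14.3, 14.9 and 15.3. The difference was 1.02 ± 0.252 bases (higher in 4 of 4 dogs, exact permutation test, two-sided p = 0.125), out of 1.27 ± 0.381 bases for the whole junction. The division covers the 18 TRBV genes with at least 100 clonotypes. The TRBV part differed by 0.156 ± 0.146 bases and the TRBJ part by 0.0982 ± 0.139, each higher in 3 of 4 dogs. In TRBV16, the insert was 13.9 ± 0.288 bases in CD4 and 15.6 ± 0.564 in CD8A, and the TRBV part 13.2 ± 0.226 and 13.8 ± 0.259. In TRBV24, inserts were shorter and alike, at 11.3 ± 1.69 and 10.8 ± 2.16. This division was chosen after the lengths had been seen.

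Over all clonotypes, mean lengths also differed among the genes. The part of the germline ends in this was not tested. TRBV28 and TRBV29 gave the shortest junctions of genes with at least 100 clonotypes, 13.3 ± 0.0791 and 13.4 ± 0.243 amino acids, and TRBV3-1 the longest, 15.1 ± 0.128. TRBV28, with its stop codon, kept 9.95 ± 0.171 bases of its end and TRBV3-2 kept 15.0 ± 0.150. TRBV26, with a stop codon at the same place, kept 11.2 ± 0.103 bases and averaged 14.0 ± 0.0716 amino acids. Of the TRBJ genes, TRBJ1-2, which has the shortest end (16 bases), gave 13.9 ± 0.154 amino acids, and TRBJ1-5, TRBJ1-6 and TRBJ2-2 (22, 25 and 23 bases) gave 15.2 ± 0.439, 15.1 ± 0.152 and 15.1 ± 0.185. The order did not follow the ends throughout. TRBJ2-1 (22 bases) gave 14.6 ± 0.0859 and TRBJ2-3 (21 bases) gave 15.0 ± 0.153. TRBJ1-3 lost the most bases of its end among the TRBJ genes that could be told apart, 7.24 ± 0.0931 of 22, and TRBJ1-2 the fewest, 2.60 ± 0.116.

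Genes that make or carry the receptor signal were measured in the same 2 cell sets. Of a list of 29 genes, 24 could be tested, 8 were higher and 7 lower in CD8A, against 13.4% and 13.3% of all 10295 genes tested (26.7% in all). The median log2 fold change was 0.09 over the list and -0.0033 over all genes. CD3D, CD3E and CD3G, the chains that carry the signal of the receptor, did not pass and differed by 0.07, -0.05 and 0.03 on the log2 scale. ZAP70, the kinase recruited to these chains, was at 132 ± 7.15 CPM in CD4 and 204 ± 9.21 in CD8A (log2 0.61 ± 0.06, adjusted p = 6.16e-05). The kinases LCK (log2 0.27) and FYN (0.40), the adaptor LCP2 (0.40), the adhesion receptor CD2 (0.39), the phosphatase PTPRC (0.26) and TRAT1 (0.64), which binds the receptor complex, were also higher. TRAT1 was higher in 3 of 4 dogs only, with overlapping ranges, and lost the threshold in 4 of 7 alternatives. LCP2 lost it in 2 and CD2 in 1 of them. RUNX3, a transcription factor of the CD8 lineage, rose from 13.3 ± 2.16 to 27.6 ± 3.57 CPM (log2 1.01 ± 0.13). ZBTB7B and GATA3, which act in the CD4 lineage, fell by 1.56 and 0.75 on the log2 scale. The costimulatory receptor CD28 fell by 1.53, and the inhibitory receptors CD5 and CD6 by 0.71 and 0.57. DNTT, the transferase that adds bases to junctions in the thymus, was near its limit in these blood cells, at 3.43 ± 2.32 CPM in CD4 and 0.750 ± 0.690 in CD8A (adjusted p = 0.00582). RAG1, RAG2 and PTCRA had no UMI.

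The composition of the sets differed beside these results, and its part in them was not tested beyond the following values. Naive T cell genes differed, with CCR7 at 179 ± 52.0 CPM in CD4 and 54.8 ± 24.7 in CD8A, and clonotypes of a single cell made up 80.9% to 96.9% of CD4 and 63.5% to 80.7% of CD8A clonotypes. Among cells with a CCR7 or LEF1 UMI, 11 of 18 TRBV genes passed, 10 of them the same genes, and 7 of the 13 TRBV and TRBJ genes that could be tested differed in length. In these cells TRBV28 was at 4.99 ± 0.884% in CD4 and 5.42 ± 2.29% in CD8A (adjusted p = 0.644). Without cells with an FCER1G UMI, 12 TRBV genes passed, all among the 13, and 2 TRBJ genes. When each cell was counted instead of each clonotype, so that large clones weighed more, 5 TRBV and 2 TRBJ genes passed. The largest clone had 41 to 148 cells in CD8A and 4 to 86 in CD4.

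Few clonotypes were common to several dogs. Of 15798 distinct combinations of TRBV gene, TRBJ gene and junction, 76 occurred in 2 dogs and 0 in 3 or 4. Without the clonotypes whose nucleotide junction was found in 2 libraries, 21 of 15743 occurred in 2 dogs. In dogs 1 to 4, 0.935%, 0.340%, 0.405% and 2.07% of CD4 clonotypes and 6.73%, 0.167%, 0.154% and 4.39% of CD8A clonotypes were found in another dog. Without those of 2 libraries, the shares were 0.301%, 0.340%, 0.347% and 0.525% in CD4 and 0.974%, 0.167%, 0.154% and 0.208% in CD8A. The CD8A values then rested on 3, 1, 1 and 1 clonotypes.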

How the data were processed

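Gene expression (5′ single-cell libraries) and V(D)J rearrangements were available for TCRαβ+ T cells of 4 dogs, as 8 samples. As deposited, the files hold UMI counts of genes in each barcode, not normalized, and for each rearrangement its V, D and J calls, junction and UMI count, made with Cell Ranger 5.0.1 per the submitters' processing notes. Reads were aligned to CanFam 3.1 per the study's methods, and no source used here names the V(D)J reference. Library depths stand in the report, and they limit single-positive calls because a transcript can be missed in a cell. Intervals and limits from a count of 0 (3 counts) cover counting error only. The gene list of dog 1 did not match its matrix, so that of dog 2 named the genes of all 4 (the totals of dog 1 then correlated with dogs 2, 3 and 4 at 0.991, 0.990 and 0.989 across genes, which are not independent replicates).

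Cells with 500 to 20000 UMIs and at most 10% mitochondrial UMIs (13 genes) and exactly 1 β-chain rearrangement were kept, and 902 cells with 2 were left out. No doublet caller was run, and 87 to 120 barcodes occurred in both of 2 libraries. Of 308 of these with a β chain in both, 0 had the same junction. A clonotype with cells of both sets went to the set with more of them, and 23 ties were left out. Clonotype counts (features with at least 20) and UMI sums over all genes were tested with edgeR 4.0.16 (quasi-likelihood, dog as block, since both sets come from one animal), pairing (prior 0.5) and lengths with limma 3.58.1, and single values with an exact permutation test that flips the sign of each dog's difference. Adjusted p-values follow Benjamini-Hochberg over all features tested. The correlations of same-dog deviations were -0.132 to 0.426 for TRBV and -0.572 to 0.669 for TRBJ genes, and the pairing rests on the animal. All TRBV and TRBJ genes could be named, with full values for the 10 most used TRBV genes, all TRBJ genes, members that passed and the 10 leading pairs of each test. Alternatives are listed in the closing section, 3 of them (naive-like cells, cells of at least 3000 UMIs, no clonotypes of 2 libraries) chosen after seeing the data. The edgeR tests, the test of pairing over all clonotypes and the test of length per gene were checked on simulated data. The test of pairing between the sets and the exact permutation tests were not. Members and lists were chosen with earlier results of these data known. Values of 1 gene of the receptor signal list are not reported here. No cell labels or genome positions were used here.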

Additional observations from a re-analysis of the deposited data

Results flagged for a closer look

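Of 110 groups of 4 dogs examined, 5 held a dog far from the other dogs, about as many as the 1 in 20 that chance gives. TRBV25 was at 10.1% of CD8A clonotypes in dog 1 against 6.59% to 6.86% in the other dogs. TRBJ2-6 was at 11.8% of CD8A clonotypes in dog 4 against 18.1% to 18.96%, the dog in which all TRBJ2-6 clonotypes carried A11G. TRBJ2-4 was at 0.646% of CD4 clonotypes in dog 4 against 0.150% to 0.195%. The mean junction length of TRBV3-2 was 14.9 amino acids in CD4 cells of dog 4 against 14.6 in each other dog, and 15.2 in CD8A cells of dog 2 against 16.1 to 16.3.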

How the results depend on the processing

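Counts of TRBV genes past the threshold lay between 11 and 15 when a dog was left out and between 11 and 14 in the other settings, except for 5 when each cell was counted. The count of TRBJ genes, 7 in the report, was 3 to 7 without a dog (3 to 6 of them among the 7), 2 with each cell counted, without FCER1G cells, in cells of at least 3000 UMIs or with no replicate block, 3 with 2 UMIs of CD4 or CD8A, in naive-like cells or with DESeq2, and 4 without the cells with TRAV9-11 and TRAJ28. The count of pairs that differed between the sets, 14 in the report, was 0 to 9 without a dog (0 to 5 of them among the 14), 0 with each cell counted, clonotypes of 1 cell, cells of at least 3000 UMIs or DESeq2, 2 without the clonotypes found in 2 libraries, 3 with 2 UMIs or no filter, 5 in naive-like cells, 6 without the cells with TRAV9-11 and TRAJ28 and 7 with shared clonotypes in both sets. For departures from the product of gene shares, 2 to 33 pairs passed without a dog, 4 with each cell counted and 15 in naive-like cells and in cells of at least 3000 UMIs. With each cell counted, 4 length classes and 4 genes in length passed, and 7 genes in naive-like cells. The count of clonotypes found in 2 dogs was 76, and 21 without those whose nucleotide junction was found in 2 libraries. The mean difference in β-chain UMIs lay between -0.434 and 0.148 without a dog and turned to 0.129 and 0.148 without dogs 3 and 4. The log2 value turned to -0.0138 for TRBV28 without the cells with TRAV9-11 and TRAJ28, and to 0.0945 for TRBV5-2 with TRBJ1-2 with each cell counted. The cause was not tested. Without the replicate block, 14 TRBV genes, 20 pairs, 9 length classes, 13 genes in length and 0 pairings passed. For single genes, lengths and pairs, 1294 values remained on their side of the threshold, 399 lost it and 2 reversed.

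The CD8A set of dog 1 had 327 clonotypes, so shares near 1% rest on few clonotypes there. A cell can miss CD4 or CD8A by low depth, and the sets hold different mixtures of naive, effector and innate-like cells. TRBV3-1 and TRBV3-2, the TRBV4 genes and TRBJ2-4 share much sequence with a relative. With 4 dogs, the exact permutation test cannot go below 0.125.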
